A study of Mus musculus with 6 samples.

Results

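A set of 10 genes was followed that encode regulators of alternative splicing: Esrp1, Esrp2, Mbnl1, Mbnl2, Mbnl3, Rbfox2, Celf1, Celf2, Ptbp1 and Ptbp2. They were chosen by symbol from 51912 gene rows, 1 row matched each symbol, and 10 of 10 passed the filter on low counts that left 14889 genes for testing. The cells were R1 mouse embryonic stem cells, an established line, which had been held in the naive state by 2iLIF (inhibitors of MEK and of GSK3 plus the cytokine LIF). They were then given FGF2 (100 ng/ml) in the defined medium N2B27, and their RNA was sequenced after 24 h (3 libraries) and after 48 h (3 libraries). Both groups received FGF2, and cells left in 2iLIF or moved to N2B27 without FGF2 were not analysed here, so FGF2, the change of medium and time in culture cannot be told apart. Whether the 3 replicates of a time came from separate cultures is not stated, so the p-values measure the spread between these libraries, which may be technical.

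Most mammalian genes yield several mRNAs because exons can be included or skipped. Proteins that bind short motifs in the pre-mRNA near an exon tip that choice, and many act as enhancer or silencer depending on whether they bind downstream or upstream of the exon. ESRP proteins set the epithelial exon pattern, MBNL proteins repress exons that mark embryonic stem cells, RBFOX proteins bind UGCAUG, CELF proteins bind GU-rich RNA and often oppose MBNL, and PTBP1 holds neuronal exons silent until PTBP2 takes its place in neurons. The counts are per gene, so they give the amount of each regulator's mRNA and not the inclusion of any exon.

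The libraries held between 19574969 and 23133148 estimated counts. The 7 embryonic stem cell markers summed to between 4704 and 4735 CPM at 24 h (counts scaled to library size by TMM) and between 3151 and 3231 CPM at 48 h, and none of them was at 0. The 6 neural markers summed to between 126.5 and 136.3 CPM at 24 h and between 143.3 and 155.6 CPM at 48 h, with Dcx and Neurog2 under 1 CPM in every library. The 7 primitive endoderm markers summed to between 9.36 and 11.2 CPM at 24 h and between 5.67 and 6.44 CPM at 48 h, with 5 of 7 under 1 CPM in every library. The 7 trophoblast markers summed to between 7.96 and 8.82 CPM at 24 h and between 2.62 and 3.11 CPM at 48 h (6 of 7 under 1 CPM), and the 7 primitive streak and mesoderm markers to between 17.3 and 20.5 CPM and between 13.2 and 15.4 CPM (5 of 7). The 7 fibroblast markers summed to between 2.54 and 3.35 CPM and between 2.53 and 3.83 CPM, with Postn and Lum at 0 in every library. The sums of the other cell types were small beside those of the stem cell markers. The stem cell, endoderm, trophoblast and streak sums were lower at 48 h while the neural sum was higher. Single genes held most of 3 of these falls. They were Gata4 for endoderm (mean 5.84 CPM at 24 h and 2.25 at 48 h), Tfap2c for trophoblast (6.60 and 1.55) and Eomes for streak (16.1 and 13.2). Among the stem cell markers Utf1 was called higher (log2 0.60), and the others were called lower, from -1.99 for Nanog to -0.07 for Pou5f1. In the fibroblast list Dcn had 0 counts in every 24 h library and 23, 25 and 32 at 48 h. Col1a1 had 16, 21 and 30 counts at 24 h and 4, 9 and 7 at 48 h. The neural markers went both ways, with Sox1 (1.31) and Pax6 (1.56) called higher on the log2 scale and Tubb3 (-0.53) and Nes (-0.19) called lower. The Nes call was lost when replicate 2 or 3 of 48 h was left out (adjusted p = 0.0949 and 0.0652) and with DESeq2 (adjusted p = 0.0554). The part of these cell types in the results below was not tested. In bulk RNA, fewer cells of a type and less RNA per cell cannot be told apart.

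Between 24 h and 48 h the 2 epithelial splicing regulators moved in opposite directions: Esrp1 mRNA rose 5.79-fold while Esrp2 mRNA fell to 0.421 of its level. Ptbp2, the neuronal paralog of Ptbp1, rose 1.58-fold. Smaller increases were measured for Celf2, Mbnl3, Celf1, Mbnl1 and Ptbp1, and Rbfox2 fell. Mbnl2 was the 1 gene of the 10 that did not pass the test. In edgeR's quasi-likelihood test with Benjamini-Hochberg adjustment over all tested genes, 9 of the 10 genes had an adjusted p under 0.05, where 62.8% of all tested genes did. Of the 10 genes 7 were higher at 48 h, against 30.9% of tested genes, and 2 were lower, against 31.9%. For 9 of the 10 genes every library of one time lay above every library of the other, against 66.9% of tested genes. Against a minimum change of 1.2-fold (edgeR's glmTreat), Esrp1 and Ptbp2 were called higher and Esrp2 lower, 3 of 10, where 30.4% of tested genes passed, so the share of larger changes was near the background. The median log2 fold change, 48 h over 24 h, was 0.23 for the 10 genes and -0.01 for all tested genes.

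**Figure D1:**
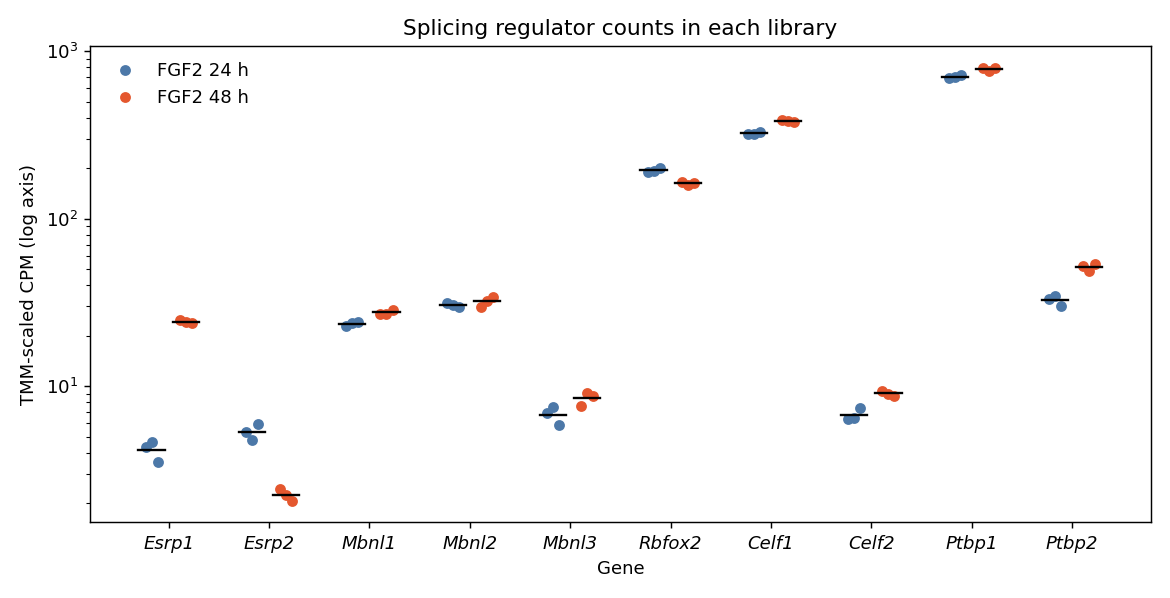
TMM-scaled CPM (vertical log axis) of the 10 regulators (horizontal axis) in each library, blue for 24 h and orange for 48 h of FGF2, with black lines at the group means of 3 libraries. Esrp1 lies between 3.52 and 4.64 CPM at 24 h and between 23.7 and 24.8 CPM at 48 h, Esrp2 moves the other way, and the Mbnl2 points overlap.

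ESRP1 and ESRP2 are closely related RNA-binding proteins named for their control of epithelial splicing, for example of the exons that give the epithelial form of FGFR2. Esrp1 (ENSMUSG00000040728, chr4:11331933-11386783, minus strand, GRCm38) stood at 4.36, 4.64 and 3.52 CPM in the 24 h libraries and at 24.8, 24.0 and 23.7 CPM in the 48 h libraries. All 48 h values lay above all 24 h values, and the spread within either group was small beside the gap. The mean was 4.17 ± 0.58 CPM at 24 h and 24.2 ± 0.54 CPM at 48 h (SD, n = 3). On the log2 scale the rise was 2.54 (SE 0.093, edgeR quasi-likelihood adjusted p = 4.85e-13), starting from 83 to 95 counts per library. Only 1.49% of tested genes had a fold change of at least this size in either direction, and 11.4% changed at least 2-fold.

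Esrp2 (ENSMUSG00000084128, chr8:106130319-106136974, minus strand) stood at 5.31, 4.79 and 5.93 CPM at 24 h and at 2.44, 2.24 and 2.07 CPM at 48 h. The groups did not overlap, now with the 24 h libraries on top. The mean was 5.34 ± 0.57 CPM at 24 h and 2.25 ± 0.18 CPM at 48 h (SD, n = 3). On the log2 scale it fell by 1.25 (SE 0.14, edgeR quasi-likelihood adjusted p = 8.94e-07), to 46 to 53 counts per library. In GENCODE M21, the overlaps of Esrp2 exons with exons of genes on the opposite strand add up to 338 bases (7.79% of the Esrp2 exon union of 4340 bases). This is a sum over genes, so bases shared with more than 1 gene would count more than once. Of these genes, Nfatc3 (155 and 174 CPM at the 2 times) was called higher by 0.16 on the log2 scale in edgeR (adjusted p = 1.37e-05). The other, 1810019D21Rik, stood at 0.544 and 0.0906 CPM. Whether reads were counted by strand is not given in the sources used here, and the part of these genes in the Esrp2 counts was not tested. For Esrp1 the overlap is 127 bases, 2.01% of the exon union, with Gm26663, which did not pass the filter on low counts.

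The balance of the 2 genes can be read within each library, where it does not depend on library scaling. There were 1.22, 1.03 and 1.69 Esrp2 counts per Esrp1 count in the 24 h libraries and 0.0985, 0.0933 and 0.0875 in the 48 h libraries. Esrp2 thus had at least as many counts as Esrp1 at 24 h and fewer than 0.1 per Esrp1 count at 48 h, a 13.8-fold shift (log2 -3.79, standard error 0.21). Per kilobase of the longest coding transcript the means at 24 h were 1.51 ± 0.16 for Esrp2 and 1.08 ± 0.15 CPM per kilobase for Esrp1 (SD, n = 3), and at 48 h 0.637 ± 0.052 and 6.25 ± 0.14.

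MBNL proteins (muscleblind-like, zinc finger proteins that bind YGCY motifs) are best known from myotonic dystrophy, where repeat RNA sequesters them. Mbnl1 (ENSMUSG00000027763, chr3:60472830-60629750, plus strand) stood at 22.8, 23.8 and 24.3 CPM at 24 h and at 27.1, 27.0 and 28.6 CPM at 48 h, without overlap. The rise of 1.17-fold (log2 0.22, SE 0.052) passed edgeR's quasi-likelihood test (adjusted p = 0.00165), and 56.4% of tested genes had a fold change of at least this size.

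Mbnl2 (ENSMUSG00000022139, chr14:120275669-120431697, plus strand) stood at 31.4, 30.5 and 29.8 CPM at 24 h and at 29.8, 32.2 and 34.1 CPM at 48 h. The groups overlapped, and the 48 h libraries spread more widely than the 24 h libraries. Its log2 fold change of 0.07 had a 95% confidence interval from -0.04 to 0.18 (edgeR adjusted p = 0.265), which does not show that there was no change. The value was 0.12 when replicate 1 of 48 h was left out (adjusted p = 0.0636), 0.02 when replicate 3 of 48 h was left out and 0.01 on scaling by library size alone.

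Mbnl3 (ENSMUSG00000036109, chrX:51117269-51206532, minus strand), the least abundant of the 3 per kilobase, stood at 6.91, 7.47 and 5.89 CPM at 24 h and at 7.59, 9.05 and 8.71 CPM at 48 h. The groups were separate by the small gap between 7.47 and 7.59 CPM. The rise of 0.33 on the log2 scale (SE 0.11) had an adjusted p of 0.0153 in edgeR's quasi-likelihood test. The call was lost when replicate 3 of 24 h (0.23, adjusted p = 0.093) or replicate 2 of 48 h (0.28, adjusted p = 0.0651) was left out and with DESeq2 (adjusted p = 0.0517), and over all alternatives the adjusted p ranged from 0.00718 to 0.093.

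Mbnl1 and Mbnl2 share an alternative exon that is known for placing the protein in the nucleus and for being controlled by MBNL proteins themselves. It is shown because it is where these regulators act on their own mRNA, and because gene counts add transcripts with and without it. In GENCODE M21 the Mbnl1 exon (chr3:60614683-60614736, plus strand, GRCm38) and the Mbnl2 exon (chr14:120395712-120395765, plus strand) each have 54 bases, a multiple of 3, and lie in the coding sequence. They are skipped in 4 coding transcripts of Mbnl1 and 3 of Mbnl2, and in 0 transcripts marked for nonsense-mediated decay. Capitals mark the 46 of 54 bases that are identical in both.
Mbnl1: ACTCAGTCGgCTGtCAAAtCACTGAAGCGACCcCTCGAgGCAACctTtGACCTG
Mbnl2: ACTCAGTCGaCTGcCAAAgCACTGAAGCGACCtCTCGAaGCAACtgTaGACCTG

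RBFOX2 promotes or represses exons by its position on UGCAUG, and it is the family member found in many cell types. Rbfox2 (ENSMUSG00000033565, chr15:77078990-77307004, minus strand) stood at 191, 193 and 199 CPM at 24 h and at 165, 159 and 163 CPM at 48 h. Every 48 h library was below every 24 h library. The mean was 194 ± 4.49 CPM at 24 h and 162 ± 3.17 CPM at 48 h (SD, n = 3), and the fall to 0.836 of the 24 h mean (log2 -0.26, SE 0.025) passed the edgeR test (adjusted p = 1.26e-07). Its paralog Rbfox1, with 1 to 5 counts per library, did not pass the filter on low counts. Rbfox3 stood at 0.732 and 0.470 CPM, with 14, 15 and 18 counts at 24 h and 9, 6 and 16 at 48 h. It passed the filter through the 24 h libraries, where it was higher, so its values are a description with no test.

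CELF1 and CELF2 regulate splicing in the nucleus and mRNA decay in the cytoplasm. Celf1 (ENSMUSG00000005506, chr2:90940382-91019497, plus strand) stood at 321, 319 and 331 CPM at 24 h and at 390.2, 385 and 379.9 CPM at 48 h, without overlap. The rise of 1.19-fold (log2 0.25, SE 0.02) passed the edgeR test (adjusted p = 1.48e-08). Celf2 (ENSMUSG00000002107, chr2:6539694-7509563, minus strand) was far lower, at 6.36, 6.49 and 7.46 CPM at 24 h and at 9.39, 9.0 and 8.8 CPM at 48 h. All 48 h values were again higher, and the gene rose 1.34-fold (log2 0.42, SE 0.096, edgeR adjusted p = 0.00125) at 127 to 204 counts per library. Of its exon union, 7.58% overlaps Gm26565 on the opposite strand, which did not pass the filter on low counts. The 2 genes thus rose together, and there were between 0.0198 and 0.0225 Celf2 counts per Celf1 count at 24 h and between 0.0232 and 0.0241 at 48 h.

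PTBP1 binds pyrimidine-rich RNA and keeps many neuronal exons out of the mRNA of other cells. Ptbp1 (ENSMUSG00000006498, chr10:79854427-79864771, plus strand) was the most abundant of the 10 per kilobase, at 691, 698 and 717 CPM at 24 h and at 796, 765 and 798 CPM at 48 h. The groups did not overlap. The rise of 1.12-fold (log2 0.16, SE 0.019) was small but larger than the spread between libraries (edgeR adjusted p = 1.62e-06). Its estimated counts were fractional in 6 of 6 libraries, so some reads were divided with other genes, whereas the other 9 genes had whole-number counts. Ptbp1 exons also overlap those of E130317F20Rik, Gm17134 and Plppr3 on the opposite strand. Summed over these genes, so that shared bases may count more than once, the overlap is 983 bases (20.7% of the exon union). Of these genes, E130317F20Rik stood at 2.42 and 2.15 CPM and Plppr3 at 0.569 and 0.866 CPM.

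Ptbp2 (ENSMUSG00000028134, chr3:119718742-119784466, minus strand) stood at 33.1, 34.5 and 30.1 CPM at 24 h and at 52.0, 49.0 and 53.6 CPM at 48 h. The lowest 48 h library was well above the highest 24 h library. The mean was 32.6 ± 2.27 CPM at 24 h and 51.5 ± 2.33 CPM at 48 h (SD, n = 3). The rise (log2 0.67, SE 0.051) passed the edgeR test (adjusted p = 7.67e-09), and 20.3% of tested genes changed by at least as much. There were 0.0479, 0.0495 and 0.042 Ptbp2 counts per Ptbp1 count at 24 h and 0.0654, 0.0641 and 0.0672 at 48 h, a 1.41-fold shift. Ptbp1 remained far more abundant at 48 h, at 248 ± 5.81 against 13.6 ± 0.62 CPM per kilobase for Ptbp2 (SD, n = 3).

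PTBP1 is known to reduce Ptbp2 mRNA, and its own, by causing a short exon to be skipped, which shifts the reading frame and sends the transcript to nonsense-mediated decay. This exon is shown because it is the known link between the paralogs. In GENCODE M21 it has 34 bases, not a multiple of 3, in Ptbp1 (chr10:79862014-79862047, plus strand, GRCm38) and in Ptbp2 (chr3:119724612-119724645, minus strand). In each gene 2 transcripts skip it, and 2 of 2 are marked for nonsense-mediated decay. Capitals mark the 26 of 34 bases that are identical in both. The use of either exon in these cells was not measured.
Ptbp1: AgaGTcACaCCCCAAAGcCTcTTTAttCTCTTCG
Ptbp2: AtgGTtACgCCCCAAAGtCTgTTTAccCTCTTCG

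The promoters of this paralog pair are shown as a description, and their part in the changes was not tested. RefSeq promoter entries (GRCm38.p6) were found for 7 of the 10 genes. The 250 bases before the RefSeq start are printed for Ptbp1 (chr10:79854182-79854431, plus strand) and Ptbp2 (chr3:119783389-119783638, minus strand). The Ptbp1 window ends near the start of its gene in GENCODE M21 (79854427). The Ptbp2 window lies inside its gene, which begins at 119784466 there, so the 2 windows are not at like positions. Capitals mark matches on either strand to GGGCGG, a site of SP and KLF factors, to CCGGAA, a core of ETS sites, and to TATAAA. The Ptbp2 window held 6 matches to GGGCGG, counting matches that overlap each other, and none to the other motifs. The Ptbp1 window held no match to any of them, which says only that these letters are not in it. Among the other regulators with entries, the Celf1 window held 4 matches to GGGCGG and the Mbnl1 windows 0 and 4. The Mbnl2 window held 1, the Mbnl3 window 0 and the Celf2 windows 0 to 3. Of 32851 promoter windows of this length, 32.7% held GGGCGG, 12.03% CCGGAA and 12.4% TATAAA. The share of G and C was 72.4% in the Ptbp2 window and 57.6% in the Ptbp1 window, with a median of 52.4% over all windows.
Ptbp1: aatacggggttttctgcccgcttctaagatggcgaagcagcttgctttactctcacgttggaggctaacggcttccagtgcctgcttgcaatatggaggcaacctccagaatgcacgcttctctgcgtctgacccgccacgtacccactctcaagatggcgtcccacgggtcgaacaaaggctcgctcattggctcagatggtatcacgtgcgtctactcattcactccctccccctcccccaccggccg
Ptbp2: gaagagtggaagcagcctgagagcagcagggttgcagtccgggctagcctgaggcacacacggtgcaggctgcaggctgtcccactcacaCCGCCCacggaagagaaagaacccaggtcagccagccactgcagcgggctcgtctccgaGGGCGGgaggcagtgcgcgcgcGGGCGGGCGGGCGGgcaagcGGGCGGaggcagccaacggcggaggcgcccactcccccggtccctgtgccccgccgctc

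**Figure D2:**
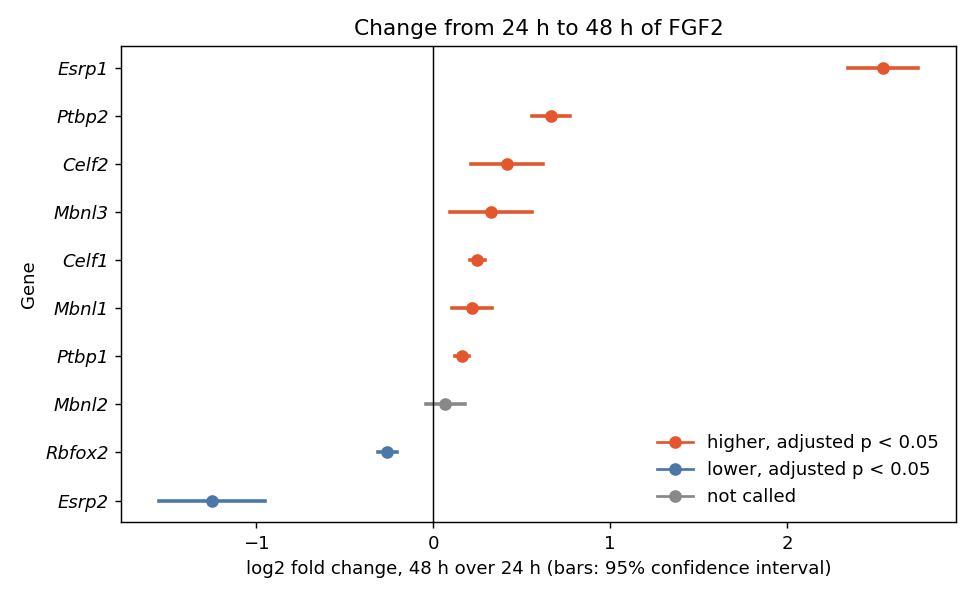
Log2 fold change, 48 h over 24 h (horizontal axis), of the 10 regulators (vertical axis) with bars for the 95% confidence interval, coloured by direction where the edgeR adjusted p was under 0.05. Esrp1 at 2.54 and Esrp2 at -1.25 stand at the ends, Ptbp2 at 0.67 follows Esrp1, and the interval of Mbnl2 spans 0.

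Per kilobase of the longest coding transcript, the order at 24 h was Ptbp1, Celf1, Rbfox2, Ptbp2, Mbnl2, Mbnl1, Esrp2, Mbnl3, Esrp1 and Celf2, from 222 ± 4.12 down to 0.764 ± 0.068 CPM per kilobase (SD, n = 3). Esrp2 and Mbnl3, at 1.51 ± 0.16 and 1.45 ± 0.17, did not differ beyond their spread. At 48 h the first 4 places were the same, while Esrp1 had moved from place 9 to place 6 and Esrp2 from place 7 to the last, place 10. With the union of exons as the length, Esrp1 (3.83) stood above Mbnl2 (2.67) at 48 h and Celf2 (0.35) below Esrp2 (0.519), so those neighbours depend on the length used.

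Changes in the balance of paralogs were compared over 5 pairs, each as a ratio of counts within a library. For 4 pairs the ratios of the 2 groups did not overlap: Esrp2 to Esrp1 (log2 shift -3.79), Ptbp2 to Ptbp1 (0.50), Celf2 to Celf1 (0.17) and Mbnl2 to Mbnl1 (-0.15, from a mean of 1.29 ± 0.077 to 1.16 ± 0.052, SD, n = 3). Each gave p = 0.1 in a two-sided exact permutation test, the smallest that 3 against 3 libraries allow, and 0.125 after adjustment over the 5 pairs. Mbnl3 to Mbnl1 overlapped (0.286 ± 0.038 and 0.307 ± 0.027, SD, n = 3; exact permutation p = 0.6). By this test no shift passes a threshold of 0.05, which the design cannot reach.

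**Figure D3:**
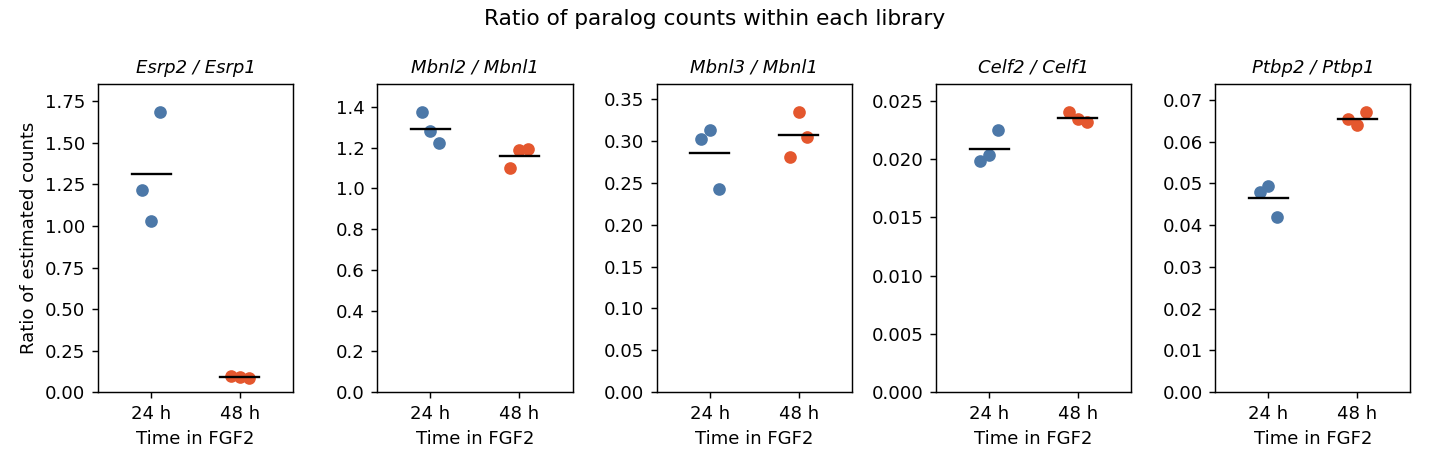
Ratio of estimated counts of 2 paralogs within each library (vertical axis from 0, own scale in each panel) at 24 h (blue) and 48 h (orange), with black lines at the means of 3 libraries. The Esrp2 to Esrp1 ratio falls from a mean of 1.31 to 0.0931, the Ptbp2 to Ptbp1 ratio goes from 0.0465 to 0.0655, and the Mbnl3 to Mbnl1 points overlap.

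The other regulators of splicing were taken from 5 lists with 70 genes, of which 65 were tested. Of these, 58 had an adjusted p under 0.05, 50 higher and 8 lower at 48 h, with a median log2 fold change of 0.20, against 62.8% called among all genes and a median of -0.01. When libraries were scaled by their size alone, 42 were called higher and 9 lower. At that scaling 63.6% of all tested genes were called, and 39.89% of the called genes were higher. Of 7 paralogs of the 10 genes, Ptbp3, at 192 ± 1.98 CPM at 24 h and 119 ± 4.56 CPM at 48 h (SD, n = 3), fell by 0.69 on the log2 scale (edgeR adjusted p = 1.65e-12) while Ptbp1 and Ptbp2 rose. Celf5 also fell (-0.40) and Celf4 rose (0.24, adjusted p = 0.0205). The Celf4 call was lost on scaling by library size alone (adjusted p = 0.0726) and when replicate 1 of 24 h (adjusted p = 0.109) or of 48 h (adjusted p = 0.0575) was left out. Celf6, at 0.424 and 0.564 CPM, was not called (edgeR adjusted p = 0.399), and Celf3, at 2 to 4 counts per library, did not pass the filter.

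Among 20 other cell-type-restricted regulators and cofactors, 18 were tested and 12 were called higher and 5 lower, against 30.9% and 31.9% of all tested genes. Khdrbs1, which encodes the signal-regulated factor SAM68, stood at 203 ± 5.3 CPM at 24 h and 329 ± 4.19 CPM at 48 h (SD, n = 3) and rose by 0.70 on the log2 scale (edgeR adjusted p = 9.01e-14). Rbm20, known for titin splicing in the heart, fell by 1.15 to 6.25 ± 0.43 CPM, and Qk, which encodes quaking, fell by 0.38. Msi1, a marker of neural progenitors, rose by 0.29. Both Nova genes, which are neuronal, moved slightly and apart, with Nova1 at 0.30 (adjusted p = 0.00865) and Nova2 at -0.30 (adjusted p = 0.0109). When replicate 3 of 24 h was left out, Nova1 (adjusted p = 0.0543) and Nova2 (adjusted p = 0.0614) lost their calls, and Nova2 did so also on leaving out replicate 2 of 48 h (adjusted p = 0.0581) and with DESeq2 (adjusted p = 0.0503). Srrm4, Elavl2, Elavl3, Elavl4 and Rbm47 were picked after their values were seen. Srrm4, an activator of neuronal microexons, had 12, 7 and 8 counts in the 24 h libraries and 72, 51 and 68 at 48 h. It passed the filter on low counts only through the 48 h libraries, where it was high, so its values are a description with no test. Srrm4 is nevertheless counted among the 12 called higher here and among the 50 called higher over all lists. Of the 3 neuronal Elavl genes, Elavl2 fell by 0.16 on the log2 scale (47.3 ± 1.71 CPM at 24 h and 42.2 ± 0.92 CPM at 48 h, SD, n = 3; edgeR adjusted p = 0.00235), while Elavl3 and Elavl4 rose by 0.97 and 0.87 on the log2 scale (edgeR adjusted p = 4.09e-06 and 2.4e-05). Rbm47 stood at 6.26 ± 0.48 CPM at 24 h and 1.29 ± 0.31 CPM at 48 h (SD, n = 3) and fell by 2.27 (edgeR adjusted p = 3.43e-09). Srrm3 was the 1 tested gene of this list that was not called (adjusted p = 0.866).

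Among genes of the general splicing machinery, 13 of the 13 SR proteins, which mostly promote exon inclusion, rose, against 30.9% of all tested genes, with log2 fold changes between 0.06 and 1.12 and a median of 0.21. The value of 1.12 is that of Srsf12 (0.805 ± 0.12 CPM at 24 h and 1.76 ± 0.18 CPM at 48 h, SD, n = 3), named after its value was seen. Srsf1 rose most among those above 5 CPM, with 676 ± 1.53 CPM at 24 h and 877 ± 3.85 CPM at 48 h (SD, n = 3; log2 0.37, edgeR adjusted p = 1.29e-12). Srsf10 and Srsf3, at 0.33 and 0.29, had fractional counts. Of 23 hnRNP and related genes, 20 rose and 3 were not called, which were Hnrnpa0, Hnrnpm and Hnrnpr (adjusted p = 0.0805, 0.112 and 0.302), with a median of 0.23 and again 30.9% of all tested genes higher. Hnrnpa0 was called higher when replicate 3 of 48 h was left out (0.08, adjusted p = 0.0207), and Hnrnpm when replicate 2 of 24 h was left out (0.05, adjusted p = 0.045). Hnrnpab rose most (0.44), followed by Hnrnph3 (0.42) and Tia1 (0.35). On scaling by library size alone, 10 of the 13 SR genes (median 0.15) and 19 of the 23 hnRNP genes (median 0.17) were called higher, and Hnrnpr was called lower (-0.09, adjusted p = 0.00721). Of all tested genes 63.6% were called at that scaling, 39.89% of them higher. Of 6 tested SR protein kinases, Srpk1 (0.24), Clk4 (0.20) and Srpk2 (0.17) were among the 4 that rose, Clk2 was not called (adjusted p = 0.0741, but 0.0228 when replicate 3 of 48 h was left out), and Clk3 fell (-0.12, adjusted p = 0.0411) with a call that was lost in 5 alternatives (adjusted p up to 0.196), among them leaving out replicate 3 of 24 h, replicate 2 of 48 h or replicate 3 of 48 h.

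**Figure D4:**
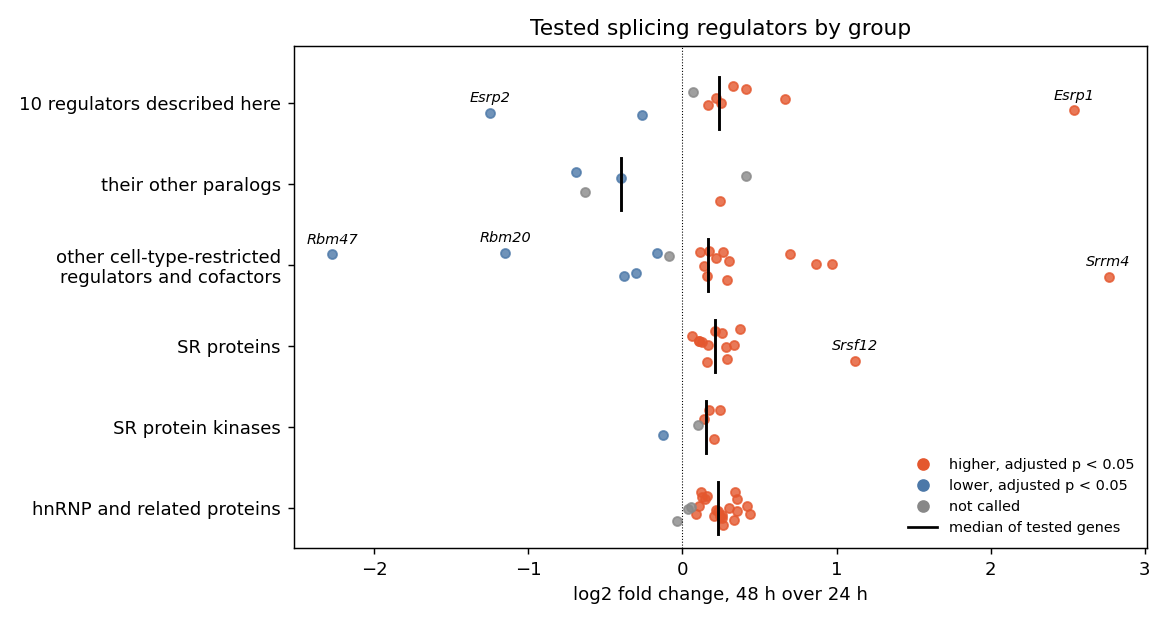
Log2 fold change, 48 h over 24 h (horizontal axis), of each tested gene in the lists of splicing regulators (vertical axis, points spread at random within a list), with black bars at the list medians. All 13 SR protein points lie to the right of 0, and Esrp1, Esrp2, Rbm20, Rbm47, Srrm4 and Srsf12 are labelled as changes over 1.1 in size.

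Genes whose exons these proteins are known to control were read at the level of the whole gene. Of 7 tested ESRP targets 6 were called (4 higher and 2 lower), against 62.8% of all tested genes. Fgfr2, whose alternative immunoglobulin-domain exons are the classical ESRP target, stood at 4.08 ± 0.068 CPM at 24 h and 33.3 ± 1.22 CPM at 48 h (SD, n = 3), with fractional counts, and rose by 3.03 on the log2 scale (edgeR adjusted p = 3.68e-15). Enah (0.35) and Fgfr1 (0.20) rose by less, and Arhgef11 (-0.20) and Ctnnd1 (-0.15) fell. Fgfr3, which is among the 6, had 7, 0 and 8 counts at 24 h and 19, 12 and 14 at 48 h. It passed the filter only through the 48 h libraries, where it was high, so its values are a description with no test. The counts of 6 called and 4 higher include Fgfr3, so they rest in part on a gene without a test. Scrib was not called (adjusted p = 0.768), and Cd44, at 2 to 8 counts per library, did not pass the filter on low counts. Which receptor or adhesion isoforms these counts hold cannot be read from them.

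Of 4 tested MBNL and CELF targets, Foxp1, whose embryonic stem cell exon is repressed by MBNL proteins, stood at 86.6 ± 2.4 CPM at 24 h and 163 ± 3.49 CPM at 48 h (SD, n = 3) and rose by 0.92 on the log2 scale (edgeR adjusted p = 7.24e-14). Ldb3 rose (0.41, adjusted p = 0.0371) with a call that was lost in 6 alternatives (adjusted p up to 0.14), among them leaving out replicate 1 or 3 of 24 h or replicate 2 or 3 of 48 h, and Insr and Clcn1 were not called (adjusted p = 0.14 and 0.347). On scaling by library size alone Insr was called lower (-0.17, adjusted p = 0.0265). Of 5 PTBP targets 5 were called, against 62.8% of all tested genes. Dlg4, which encodes the postsynaptic protein PSD-95 and whose mRNA decays when PTBP proteins skip an exon, rose by 0.92 to 3.79 ± 0.44 CPM (edgeR adjusted p = 0.000666). Nasp (0.40) and Pkm (0.28, fractional counts) also rose, while Gabbr1 (-0.41) and Src (-0.41) fell.

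Because ESRP genes mark epithelia, 15 epithelial and mesenchymal genes were set beside them, of which 14 were tested, 8 rose and 4 fell, against 30.9% of all tested genes higher and 31.9% lower. Grhl2, an epithelial transcription factor, stood at 4.36 ± 0.93 CPM at 24 h and 75.6 ± 2.01 CPM at 48 h (SD, n = 3), a rise of 4.13 on the log2 scale (edgeR adjusted p = 9.42e-17), and Epcam rose by 1.24. Ovol2, another epithelial transcription factor, stood at 2.38 ± 0.24 CPM at 24 h (SD, n = 3) and at 0.504 of that level at 48 h, a fall of 0.98 on the log2 scale (edgeR adjusted p = 0.000583). Cldn7, a tight junction gene, was not called (-0.59, adjusted p = 0.146). Genes of the mesenchymal side were also among those that rose, with Zeb2 at 2.99 (1.33 ± 0.22 to 10.7 ± 0.89 CPM) and Cdh2 at 1.35, while Fn1 fell (-0.73) and Vim fell (-0.30). Cdh1, at 737 and 786 CPM, was called higher by 0.09, a call that was lost on scaling by library size alone (0.03, adjusted p = 0.0844). Among the genes named from these lists, some have exons that overlap exons on the opposite strand by the largest shares. They are Nova2 (2652 of 8372 bases), Hnrnpab (809 of 2782), Ovol2 (359 of 2113), Clk3 (1284 of 8450), Fgfr3 (998 of 7158) and Arhgef11 (991 of 7951).

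Over the 6 libraries, the 3 genes closest to Esrp1 in their centred log2 CPM were Dtx4 (Euclidean distance 0.151), Pcdh1 (0.158) and Sall2 (0.191), with log2 fold changes of 2.43, 2.55 and 2.63. Those closest to Esrp2 were Smtnl2 (0.151), Syngr1 (0.157) and Traf3ip2 (0.163), with -1.20, -1.19 and -1.24. With 2 groups of 3 libraries this measure mainly finds genes with a fold change of the same size.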

How the data were processed

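RNA of 6 libraries (3 at 24 h and 3 at 48 h of FGF2) was read from 1 deposited table. Per the submitters' processing notes, cutadapt 1.9.1, STAR 2.5.2, RSEM 1.3.0 and the build GRCm38 were used; annotation, strand setting and filters are not given in the sources used here. The deposited values are RSEM estimated counts per gene, not scaled for depth or length, and RSEM divides reads shared between similar genes. They were rounded to whole numbers. Of 51912 identifiers 51719 were found in GENCODE M21 (GRCm38), which gave symbols, positions and lengths.

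Genes were kept by filterByExpr (minimum count 10), scaled by TMM and tested on all 14889 genes with edgeR 4.0.16 (R 4.3.3, glmQLFit and glmQLFTest, group as the only term), with Benjamini-Hochberg adjustment and a threshold of 0.05. Standard errors are the fold change divided by the square root of F. The script was tested on simulated data. The 10 genes and all lists were chosen with earlier results of these data known. From each other list, up to 3 genes per direction with the largest called changes and at least 5 CPM were named; target, paralog, epithelial and marker genes may also be named, and genes that make up a count of 5 or fewer were named after their values were seen. CPM are TMM-scaled. The genes closest in pattern were sought for the 2 called regulators with the largest rise and fall, among genes of at least 5 CPM. Alternatives were other scalings, filters, tools (DESeq2 1.42.0, limma 3.58.1) and leaving out each library. Replicate pairs differed by 1.84 to 2.29 in chi-square per degree of freedom, so they are not copies of each other. That does not show that they came from separate cultures. The common coefficient of variation between replicates was 2.32% in edgeR, and whether this spread is technical was not tested. Each library was counted as a sample. A further neural marker is not reported here.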

Additional observations from a re-analysis of the deposited data

How the results depend on the processing

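Of the alternative fits of single genes among the 10 regulators (15 for each gene: other scalings, filters, tools, unrounded counts, a replicate block and leaving out each library), 147 kept the direction and the side of the threshold, and 3 lost the Mbnl3 call. When a library was left out, 8 to 9 of the 10 were called, where 57.7% to 58.6% of all tested genes were. For the other splicing regulators these fits gave 54 to 59. The number of the 10 called was 8 with DESeq2 (53.6% of all tested genes) and 8 at an adjusted p under 0.01 (52.5%). Against a minimum change of 1.2-fold it was 3 (2 higher and 1 lower; 30.4% of all). Between same-numbered libraries the correlations of deviations were -0.046, -0.043 and -0.009. All tested genes weighed equally here, so counting noise in genes with few counts may hide a pairing, and the check cannot exclude one. A replicate block gave 9 of the 10 regulators (7 higher, 2 lower), 58 other regulators and 9235 genes in all, against 9345 without it.

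Directions turned only in results that were not called. On scaling by library size alone, which moved the median of all genes from -0.01 to -0.07, the log2 fold change was -0.0055 for Hnrnpa0, -0.0257 for Hnrnpm and -0.0493 for Scrib. Leaving out 1 library gave -0.0285 to 0.4525 for Clcn1, -0.0067 to 0.0377 for Scrib, -0.4365 to 0.1662 for Srrm3 and -0.0101 to 0.1749 for the log2 shift of the Mbnl3 to Mbnl1 ratio. The cause was not tested. The log2 fold change ranged from 2.42 to 2.63 for Esrp1, from -1.32 to -1.16 for Esrp2 and from 0.60 to 0.71 for Ptbp2. Among the 10, Esrp2 had 46 to 140 counts per library, which limits its precision.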
